A study of Mus musculus with 9 samples.

Results

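The B cell identity genes Cd79a, Cd79b, Ms4a1, Pax5, Cd22, Blk, Fcrla, Cr2 and Pou2af1 were followed across 9 mouse liver tumour libraries. These 9 genes were picked by symbol, and all were found among the 32761 genes of the deposited table with a value above 0 in at least 1 library. The tumours were grown in the mouse liver from Hepa1-6-luc, a mouse hepatoma line that carries luciferase, and were taken on day 14. Poly(A) RNA was sequenced in 3 groups of 3 libraries out of 6 treatment groups in the study. Control is the first group, and the sources used here do not state what its mice were injected with. Lenvatinib+anti-PD1 received free lenvatinib, a multi-kinase inhibitor, every 3 days and 50 µg of an antibody to the checkpoint receptor PD1 every 4 days. Co+Len@OVA+anti-PD1 received a drug-loaded nanocluster at 2 mg/mL by tail vein on the same schedule with the same antibody, and is called the nanocluster group below. The labels do not spell out Co. Both treated groups share the antibody, and the study's other groups were not analysed here, so the parts played by drug, carrier and antibody cannot be told apart. The sources used here do not state the strain, sex or age of the mice, and nothing beyond 3 per group says that libraries came from separate animals. The p-values therefore measure the spread between these libraries, which may be technical.

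B cells recognise antigen through a surface immunoglobulin that signals through the paired chains Igα and Igβ. The transcription factor Pax5 holds cells in the B lineage, and co-receptors such as CD22 and CD21 lower or raise the strength of the receptor's signal. Several of these genes, Pax5 among them, are switched off when a B cell becomes an antibody-secreting plasma cell. Those genes report on B cells rather than on antibody output. This does not hold for every member, and the part of plasma cells in the values of Pou2af1 and the others was not tested. In the liver, B cells are a minority among leukocytes, and in tumours they can gather in lymphoid aggregates.

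The regions before the start sites of 6 of the 9 genes were available from RefSeq (GRCm38.p6), and those of Cd79b, Ms4a1 and Blk were not matched. The regions of 3 genes are printed, because Cd79a had the largest fitted log2 fold change over Control, Pou2af1 alone passed that test among the 4 genes above the filter on low values, and Cd22 differed most between Control libraries 1 and 2. Each line gives the 250 bases before the start, 5′ to 3′ on the gene's own strand, with capitals on matches to 5 motifs known for factors of B cells, searched on both strands. The motifs were the octamer ATGCAAAT, its 7-base core TGCAAAT, which lies inside the octamer, the EBF core CCCNNGGG, the E-box CAGGTG and the Ets core GGAAGT.
Cd79a, chr7:24897247-24897496, GRCm38.p6, plus strand: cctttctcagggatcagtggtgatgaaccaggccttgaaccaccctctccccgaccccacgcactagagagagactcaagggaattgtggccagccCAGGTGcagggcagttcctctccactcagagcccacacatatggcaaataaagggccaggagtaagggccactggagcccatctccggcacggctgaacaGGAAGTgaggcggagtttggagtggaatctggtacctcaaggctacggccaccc
Cd22, chr7:30879029-30879278, GRCm38.p6, minus strand: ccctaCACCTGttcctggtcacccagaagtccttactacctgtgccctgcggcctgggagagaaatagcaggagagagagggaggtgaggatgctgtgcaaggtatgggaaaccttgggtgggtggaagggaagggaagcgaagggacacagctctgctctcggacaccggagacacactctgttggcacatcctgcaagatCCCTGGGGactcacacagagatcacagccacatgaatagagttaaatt
Pou2af1, chr9:51213440-51213689, GRCm38.p6, plus strand: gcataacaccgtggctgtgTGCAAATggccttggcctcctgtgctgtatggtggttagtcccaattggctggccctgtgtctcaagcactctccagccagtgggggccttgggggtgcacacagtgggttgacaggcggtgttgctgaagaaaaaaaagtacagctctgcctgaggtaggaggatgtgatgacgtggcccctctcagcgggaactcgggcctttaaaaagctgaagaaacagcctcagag
In the Cd79a region the capitals mark an E-box 154 to 149 bases before the start and an Ets core 54 to 49 bases before it. In the Cd22 region they mark an E-box 245 to 240 bases before the start and an EBF core 48 to 41 bases before it. In the Pou2af1 region they mark the octamer's 7-base core 231 to 225 bases before the start. Across the 6 regions an E-box was found in 4, an Ets core in 2, an EBF core in 1 and the 7-base core in 1, and the full octamer in 0. Of 32851 promoter regions of the same length, 17.2% held the E-box, 19.7% the Ets core, 11.8% the EBF core, 3.56% the 7-base core and 1.6% the octamer. These are matches of letters, and no binding was measured. Only the exact letters given were searched, so a region without a mark may still hold a variant site of the same factor.

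Before the levels are compared, a feature of the third libraries bears on every test. Levels are in FPKM, fragment counts scaled by transcript length and library size. In Control, 614 genes with an average of 1 FPKM or more differed over 4-fold between libraries 1 and 2, and for 94.3% of these the level in library 3 fell in between. The share was 97.6% of 455 such genes in the nanocluster group, and 96.6% of 388 with Lenvatinib+anti-PD1. If the third libraries are not independent of the others, the p-values from 9 libraries are too small. Of the members, Cd79a met this rule in the nanocluster group and Cd22 in Control, and library 3 fell in between for both. Over all members, whatever their level or fold, library 3 fell in between for 9 of 9 genes in the nanocluster group. That count was 3 of 9 in each of the other groups. The share of all genes without the rule was not computed, so these counts cannot be set against the shares above. Alb, the liver's albumin gene, checks the tissue and was at 630 to 908 FPKM in the nanocluster group, 1937 to 2084 FPKM with Lenvatinib+anti-PD1 and 1686 to 3386 FPKM in Control. Afp, which hepatomas often express, was at 233 to 240, 339 to 385 and 368 to 439 FPKM in the same order. Of 14 hepatocyte markers, 14 fell in the nanocluster group against Control, at a median log2 fold change of -3.48, and 13 fell against Lenvatinib+anti-PD1. Of all genes tested, 12.7% and 12.0% fell in these comparisons. The marker counts were 3 and 8 with libraries 1 and 2 alone, where 0.521% and 2.38% of all genes were called. At an unadjusted p under 0.05 they were 13 and 13. The share of all genes at an unadjusted p under 0.05 was not computed, so such counts here and below cannot be judged against it. The part of these liver genes in the B cell values was not tested. Summed FPKM ran from 331610 to 372790 over the libraries.

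All 9 genes had their highest group mean in the nanocluster tumours, and for 8 of 9 the order was nanocluster, Control, Lenvatinib+anti-PD1. Every nanocluster library lay above every Lenvatinib+anti-PD1 library for 9 of 9 genes, where 20.9% of all 32761 genes did so and 34.3% of those averaging 0.5 FPKM or more. Against Control this held for 7 of 9 genes, where the shares were 20.7% and 32.4%, and the exceptions were Cd79b and Cd22. Ratios of mean FPKM of the nanocluster group to Control ran from 1.77 for Cd22 to 6.27 for Ms4a1. With libraries 1 and 2 alone the counts were again 9 and 7, with 26.0% and 26.2% of all genes. In bulk tissue, more B cells and more of these RNAs per cell cannot be told apart.

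**Figure D1:**
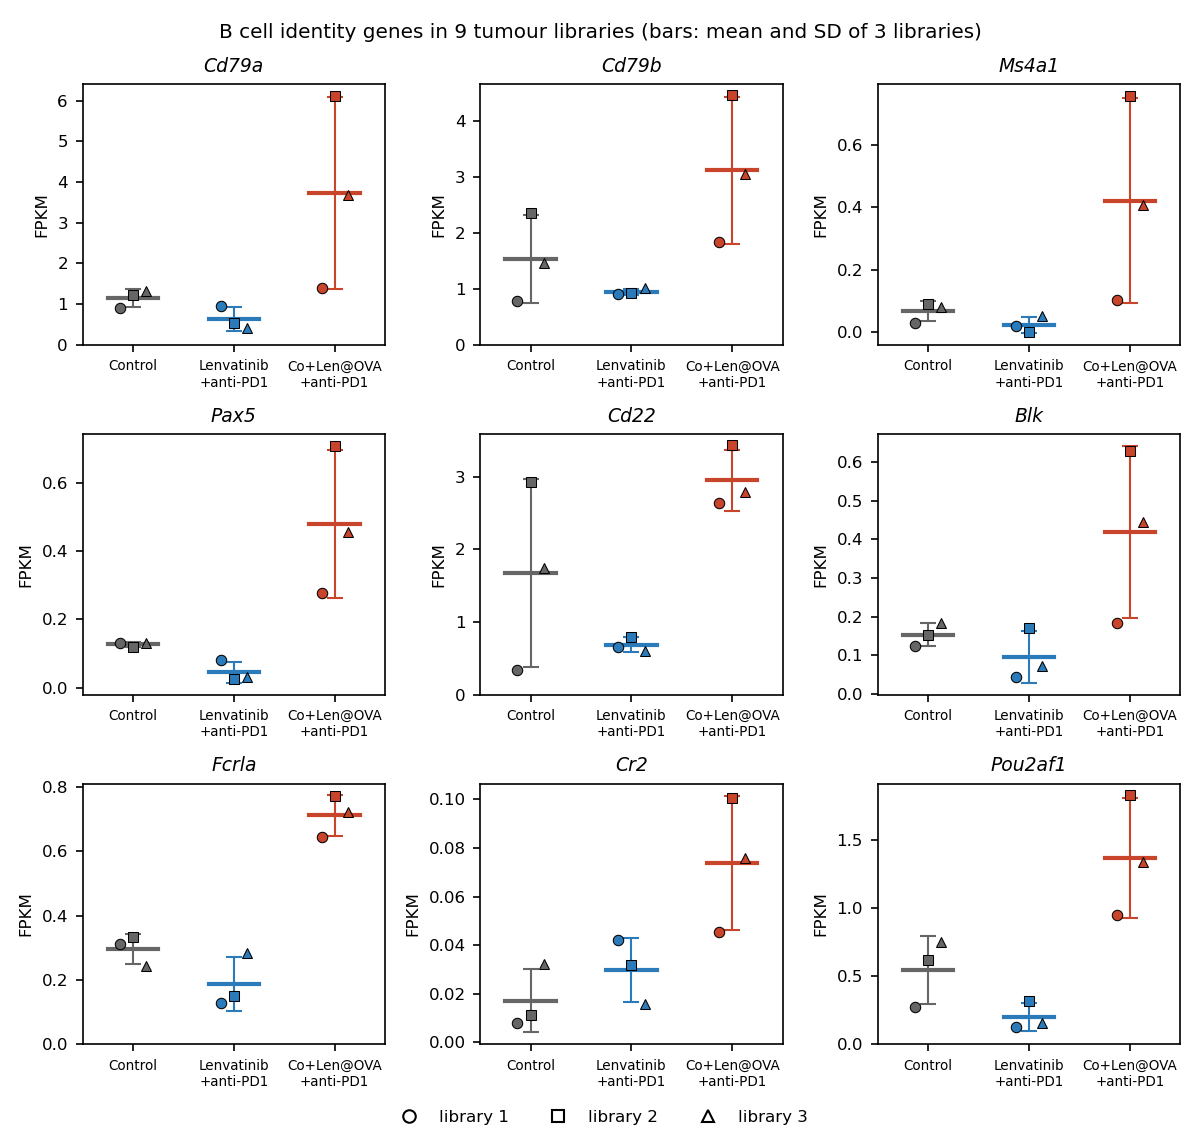
FPKM of each of the 9 B cell genes (vertical axis, own scale per panel) in the 3 libraries of each group; symbols mark library 1, 2 and 3, the thick line is the mean and the error bar the SD of 3 libraries. Library 2 of the nanocluster group is the highest of all 9 libraries in every panel, and library 1 is the lowest of its group in every panel.

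The signalling chains of the B cell receptor had the highest mean FPKM of the set in the nanocluster group. Cd79a (ENSMUSG00000003379), which encodes Igα, was at 1.40, 6.11 and 3.69 FPKM in nanocluster libraries 1, 2 and 3. It was at 0.966, 0.547 and 0.410 FPKM with Lenvatinib+anti-PD1 and at 0.895, 1.23 and 1.31 FPKM in Control. The nanocluster libraries lay above all others, but the first of them only just cleared the highest Control library. Cd79b (ENSMUSG00000040592), which encodes Igβ, was at 1.83, 4.47 and 3.05 FPKM in the nanocluster group. It was at 0.906, 0.932 and 1.01 FPKM with Lenvatinib+anti-PD1 and at 0.791, 2.35 and 1.46 FPKM in Control, so that the nanocluster and Control ranges overlapped.

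The co-receptors were less alike. Cd22 (ENSMUSG00000030577) encodes an inhibitory receptor that binds sialic acids. It was at 2.64, 3.44 and 2.79 FPKM in the nanocluster group, at 0.653, 0.799 and 0.604 FPKM with Lenvatinib+anti-PD1, and at 0.340, 2.93 and 1.74 FPKM in Control. The Control libraries spanned 8.64-fold between the first and the second, and the second lay inside the nanocluster range. The first Control library was also low in Ptprc, the pan-leukocyte gene for CD45, at 0.988 FPKM against 6.08 and 4.37. It was lower than the second in all 13 macrophage markers, which summed to 229 FPKM against 1070 and 783. Of all genes tested, 59.3% were higher in the second than in the first. Whether the low Ptprc and macrophage levels of the first library bear on its Cd22 level was not tested. Cr2 (ENSMUSG00000026616), which in mice encodes both the complement receptors CR1 and CR2, was close to the limit of measurement. It was at 0.0454, 0.101 and 0.0757 FPKM in the nanocluster group, at 0.0421, 0.0316 and 0.0158 FPKM with Lenvatinib+anti-PD1 and at 0.00804, 0.0114 and 0.0322 FPKM in Control. It was the only member whose mean was not lower with Lenvatinib+anti-PD1 than in Control, and those 2 groups overlapped.

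Ms4a1 (ENSMUSG00000024673) encodes CD20, the target of antibodies that deplete B cells. It was at 0.102, 0.755 and 0.408 FPKM in the nanocluster group and at 0.0308, 0.0901 and 0.0807 FPKM in Control, and was listed at 0 in library 2 of Lenvatinib+anti-PD1 beside 0.0188 and 0.0512 FPKM in libraries 1 and 3. Nanocluster libraries 2 and 3 stood well above Control, while library 1 exceeded the highest Control library by little. Fcrla (ENSMUSG00000038421), an intracellular Fc receptor-like protein of B cells, varied least relative to its mean in the nanocluster group. It was at 0.644, 0.771 and 0.722 FPKM in the nanocluster group, at 0.129, 0.149 and 0.282 FPKM with Lenvatinib+anti-PD1 and at 0.310, 0.333 and 0.242 FPKM in Control. Blk (ENSMUSG00000014453), a Src-family kinase of the receptor's signalling, was at 0.184, 0.627 and 0.444 FPKM in the nanocluster group, at 0.0436, 0.170 and 0.0727 FPKM with Lenvatinib+anti-PD1 and at 0.124, 0.151 and 0.183 FPKM in Control. Its first nanocluster library was level with the highest Control library to 2 significant digits.

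The nuclear regulators had the same order over the nanocluster libraries. Pax5 (ENSMUSG00000014030) was at 0.276, 0.707 and 0.457 FPKM in the nanocluster group, at 0.0817, 0.0249 and 0.0321 FPKM with Lenvatinib+anti-PD1 and at 0.132, 0.118 and 0.132 FPKM in Control. It was the only member for which the 3 groups did not overlap at all. The Lenvatinib+anti-PD1 values rest on an estimated 2.93 to 11 fragments a library, against 38.0 to 95.2 in the nanocluster group. Pou2af1 (ENSMUSG00000032053), which encodes OCA-B, the coactivator that octamer-binding factors recruit in B cells, was at 0.945, 1.82 and 1.33 FPKM in the nanocluster group. It was at 0.129, 0.316 and 0.153 FPKM with Lenvatinib+anti-PD1 and at 0.271, 0.614 and 0.749 FPKM in Control, where the first library overlapped the Lenvatinib+anti-PD1 range.

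Since FPKM are scaled by transcript length, levels can be ordered between genes. In the nanocluster group the means were 3.73 ± 2.35 FPKM for Cd79a, 3.12 ± 1.32 for Cd79b and 2.95 ± 0.425 for Cd22 (SD, n = 3), and these 3 overlapped. Pou2af1 followed at 1.37 ± 0.441 FPKM and Fcrla at 0.712 ± 0.064 FPKM. Pax5 at 0.480 ± 0.216 FPKM, Ms4a1 at 0.421 ± 0.327 and Blk at 0.418 ± 0.223 overlapped each other, and Cr2 was lowest at 0.0739 ± 0.0277 FPKM.

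Of the 9 genes, Cd79a, Cd79b, Cd22 and Pou2af1 reached the mean of 0.5 FPKM over the 9 libraries that the main test required, a count of 4, and the other 5 were tested in a fit with no such filter. Tests were run with limma on log2(FPKM + 0.5), a scale that understates the change of low genes, and adjusted p-values under 0.05 were called. Against Control, Pou2af1 rose in the nanocluster group by 0.84 ± 0.25 (log2 fold change ± SE, limma adjusted p = 0.0338). Of all 15353 genes tested there, 33.6% were called and 20.9% were higher. Cd79a had the larger log2 fold change of 1.20 ± 0.41 but did not pass (limma adjusted p = 0.0566), nor did Cd79b at 0.84 ± 0.33 (limma adjusted p = 0.0839) or Cd22 at 0.88 ± 0.44 (limma adjusted p = 0.150). The median log2 fold change of these 4 was 0.86, beside 0.13 over all genes tested.

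With no filter, 32761 genes were tested and 12.9% were called against Control, 7.81% being higher. There Fcrla rose by 0.61 ± 0.12 (limma adjusted p = 0.0176) and Pax5 by 0.62 ± 0.16 (limma adjusted p = 0.0375), while Pou2af1 missed the threshold (limma adjusted p = 0.0576). Ms4a1, Blk and Cr2 had log2 fold changes of 0.64, 0.46 and 0.15 with limma adjusted p-values of 0.116, 0.138 and 0.0806. The Pou2af1 call was also lost without nanocluster library 2 (log2 fold change 0.67), nanocluster library 3 (0.84), Lenvatinib+anti-PD1 library 3 (0.84) or Control library 1 (0.64), with limma adjusted p-values of 0.0542 to 0.0964. The Pax5 call was lost without any single library other than nanocluster libraries 1 and 2, and the Fcrla call without nanocluster library 3 or Control library 3, with limma adjusted p-values of 0.0588 to 0.107. Without nanocluster library 1, the lowest of its group for 9 of 9 genes, Cd79a reached 1.68 and rose (limma adjusted p = 0.00630), and Cd79b, Ms4a1, Blk and Cr2 also passed. Without Control library 2, the highest of Control for both, Cd79b and Cd22 passed as well, at 1.12 and 1.32. Leaving out the lowest nanocluster or the highest Control library widens the difference by itself, so these calls add no support. In the filtered fit, 26.3% of all genes were called without nanocluster library 1 and 37.6% without Control library 2. With libraries 1 and 2 of each group alone, limma called 0 of the 4 filtered genes and 0 of 9 without the filter, and 1 of the 4 had an unadjusted p under 0.05. Those fits called 0.521% of the 15353 filtered genes and 0 of 32761 without the filter.

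Between free lenvatinib with the antibody and Control, none of the 9 B cell identity genes passed the test. limma called 0 of the 4 genes, and 0 of them had an unadjusted p under 0.05, where 23.7% of all genes were called. With no filter limma called 0 of 9, where 9.08% of all genes were called, and Pou2af1 had an unadjusted p of 0.0480. The log2 fold changes were -0.55 ± 0.41 for Cd79a, -0.41 ± 0.33 for Cd79b, -0.66 ± 0.44 for Cd22 and -0.56 ± 0.25 for Pou2af1, with limma adjusted p-values of 0.138 to 0.400. Every Lenvatinib+anti-PD1 library lay below every Control library for 1 of 9 genes, Pax5, where 10.4% of all genes did so, and 17.4% of those averaging 0.5 FPKM or more. With libraries 1 and 2 alone this held for 3 of 9 genes, Pax5, Ms4a1 and Fcrla, and for 14.2% of all genes. Of all genes, 9.87% were lower with all libraries. Without Control library 1, which held the least Ptprc, limma called 32.9% of all genes, 2679 of 15353 being lower, and 2 of the 4 members passed. There Cd22 fell by 1.23 (limma adjusted p = 0.00367) and Pou2af1 fell by 0.76 (limma adjusted p = 0.0416). Control library 1 was the lowest of Control for both genes, so leaving it out widens the difference by itself. Markers of other cells moved with this contrast. Of 9 skeletal and heart muscle markers tested 8 rose, at a median log2 fold change of 5.66, where 13.8% of all genes rose. Their summed levels were 31.7, 4197 and 1679 FPKM in Lenvatinib+anti-PD1 libraries 1, 2 and 3 against 3.05 to 41.7 FPKM in Control. The count that rose was also 8 without Lenvatinib+anti-PD1 library 1, 3 without Control library 3 and 0 without any other single library. Of 8 neutrophil markers 7 fell, with summed levels of 25.3 to 37.7 FPKM against 132 to 143 FPKM in Control, and 6 to 8 fell without any single library. In libraries 1 and 2 alone 0 muscle and 0 neutrophil markers passed in limma, with 5 and 7 at an unadjusted p under 0.05, and 0.345% of all genes were called. The part of muscle or neutrophils in the B cell values was not tested.

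Between the treated groups, all 4 filtered genes were higher with the nanocluster, where 29.4% of all genes were called and 17.3% were higher. The log2 fold change was 1.74 ± 0.41 for Cd79a (limma adjusted p = 0.0168), 1.25 ± 0.33 for Cd79b (limma adjusted p = 0.0255) and 1.54 ± 0.44 for Cd22 (limma adjusted p = 0.0339). Pou2af1 rose by 1.40 ± 0.25 (limma adjusted p = 0.00492), which left the smallest p of the 4. With no filter, where 11.8% of all genes were called and 6.52% were higher, Fcrla rose by 0.82 ± 0.13 (limma adjusted p = 0.00484) and Pax5 by 0.82 ± 0.16 (limma adjusted p = 0.0136). Ms4a1 at 0.75, Blk at 0.60 and Cr2 at 0.11 did not pass, and Cd22 missed the threshold in that fit (limma adjusted p = 0.0625). The Pax5 call was lost without nanocluster library 3 or Lenvatinib+anti-PD1 library 2 or 3, with limma adjusted p-values of 0.0507 to 0.0571. This comparison and the first share the nanocluster libraries, so their values are not independent. Of the 4 filtered genes, 2 passed without nanocluster library 2 or without Lenvatinib+anti-PD1 library 1, and 1 passed without nanocluster library 3 or without Lenvatinib+anti-PD1 library 2 or 3. Libraries 1 and 2 alone left 0 called by limma, with 1 at an unadjusted p under 0.05.

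**Figure D2:**
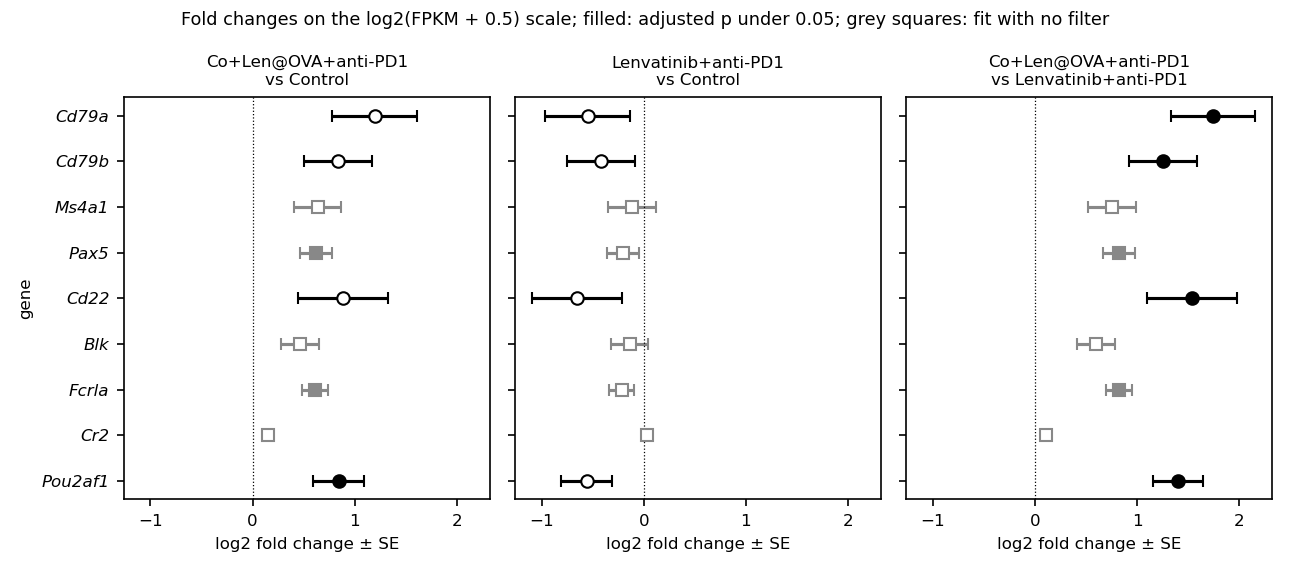
Log2 fold change ± SE of each of the 9 genes (vertical axis) in the 3 comparisons, on the log2(FPKM + 0.5) scale; black circles come from the filtered fit, grey squares from the fit with no filter, and filled symbols have a limma adjusted p under 0.05. Against Control the filled symbols for the nanocluster group are 1 of 4 in the filtered fit, Pou2af1, and Pax5 and Fcrla with no filter. None is filled for Lenvatinib+anti-PD1 against Control. Between the treated groups 4 of 4 are filled in the filtered fit, and Pax5 and Fcrla with no filter. The fits were adjusted separately. In the filtered fit 20.9% and 17.3% of all genes were higher in the nanocluster group, and 7.81% and 6.52% with no filter.

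Within the nanocluster group, the B cell genes and other leukocyte genes were ordered differently over the libraries. From library 1 to library 2, FPKM was higher for 9 of 9 B cell genes, with ratios from 1.20 for Fcrla to 4.36 for Cd79a and 7.42 for Ms4a1. Of 20 other B cell surface and signalling markers 17 were higher in library 2, as were 10 of 12 immunoglobulin constant regions. In contrast 0 of 17 T cell markers were higher there, their sum being 322 FPKM in library 1 and 227 FPKM in library 2. Of 13 macrophage markers 3 were higher, with sums of 1197 and 1011 FPKM, and Ptprc was 0.733 times its level in library 1. Over all genes tested 47.8% were higher in library 2. These are values of single libraries, with no test.

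Markers of other cell types also differed between these libraries. Hepatocyte markers were higher in library 2 for 12 of 14 genes, with summed levels of 797, 1140 and 996 FPKM in nanocluster libraries 1, 2 and 3. Neutrophil markers were higher for 1 of 8 genes, with summed levels of 192, 76.5 and 131 FPKM. Adipocyte markers were lower in library 2 for 10 of 10 genes, with a median log2 difference of -1.75 and summed levels of 216, 39.8 and 125 FPKM in nanocluster libraries 1, 2 and 3, against 47.5 to 563 with Lenvatinib+anti-PD1 and 6.69 to 14.4 in Control. Red cell markers were higher for 7 of 7 genes, with summed levels of 2063, 2995 and 2530 FPKM, against 176 to 433 with Lenvatinib+anti-PD1 and 295 to 603 in Control. They rose against Control for 5 of 5 genes tested, the haemoglobin gene Hbb-bs by 2.55 (limma adjusted p = 0.00222), where 20.9% of all genes rose. With libraries 1 and 2 alone 0 of 5 passed, with 5 at an unadjusted p under 0.05, and 0.521% of all genes were called. The part of liver, blood or fat in the B cell values was not tested. Plasmacytoid dendritic cells also express Spib, Blk and Cd79b, and 4 of 12 of their markers were higher in library 2. Siglech was at 0.759, 0.149 and 0.353 FPKM and Pacsin1 at 3.77, 0.467 and 2.19 FPKM in the same libraries, lowest in library 2. Bst2 was at 231, 237 and 232 FPKM and Spib at 0.803, 1.48 and 1.00 FPKM, highest in library 2. The part of these cells in the B cell values was not tested.

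**Figure D3:**
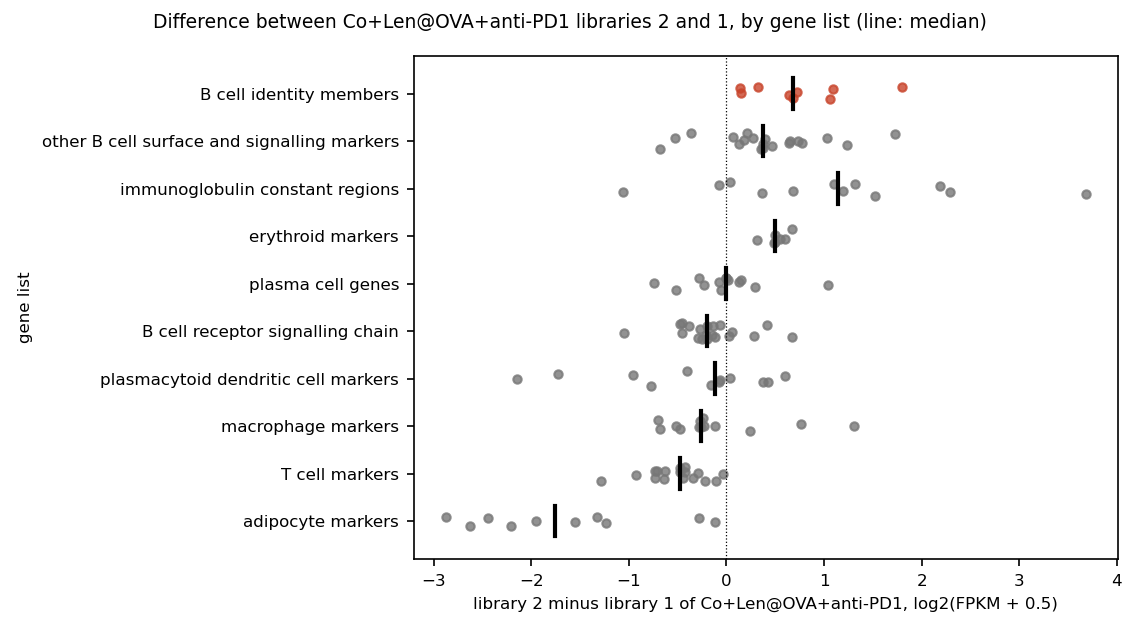
Difference in log2(FPKM + 0.5) between libraries 2 and 1 of the nanocluster group (horizontal axis) for each gene of 10 lists (vertical axis); each point is a gene and the black line the list's median. All 9 B cell genes and all 7 red cell markers lie right of 0, and all 17 T cell and all 10 adipocyte markers lie left of it.

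Set against the general leukocyte content, the B cell genes of the nanocluster tumours overlapped those of Control. Ptprc was at 8.78 ± 1.36 FPKM in the nanocluster group, 3.22 ± 0.17 with Lenvatinib+anti-PD1 and 3.81 ± 2.59 in Control (SD, n = 3). Its log2 fold change over Control was 1.34 ± 0.47 (limma adjusted p = 0.0597). The summed FPKM of the 9 genes was 79.2%, 252% and 149% of Ptprc in nanocluster libraries 1, 2 and 3. It was 94.3%, 95.7% and 77.1% with Lenvatinib+anti-PD1 and 294%, 129% and 136% in Control. The nanocluster libraries overlapped both other groups on this measure. For 0 of 9 genes taken singly did all nanocluster libraries exceed all Control libraries relative to Ptprc. The share of all genes that would do so was not computed, so this count cannot be judged against it. Ptprc was at 0.988, 6.08 and 4.37 FPKM in Control libraries 1, 2 and 3, where Cd79a was 90.6%, 20.2% and 30.1% of it. Relative to Cd3e, a chain of the T cell receptor complex, the sum was 68.6%, 221% and 139% in the nanocluster group, 80.5%, 87.5% and 77.8% with Lenvatinib+anti-PD1, and 296%, 196% and 218% in Control. Cd8a, for comparison, was 407% to 416% of Ptprc in the nanocluster group and 199% to 326% in Control, without overlap.

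**Figure D4:**
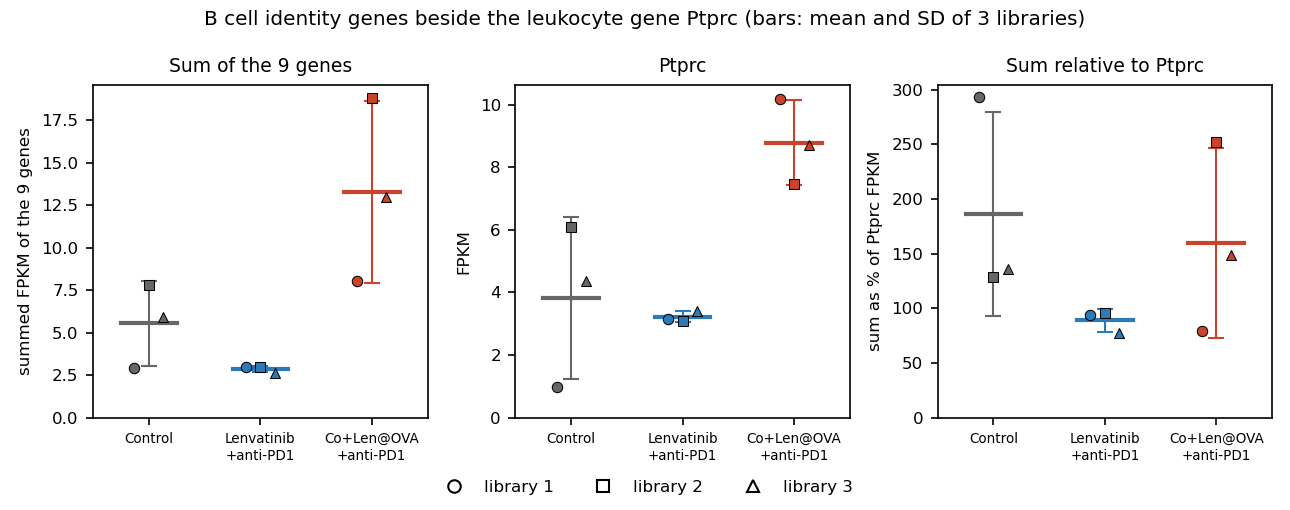
Summed FPKM of the 9 B cell genes, FPKM of Ptprc, and the sum as a percentage of Ptprc in each library of the 3 groups; the thick line is the mean and the error bar the SD of 3 libraries. The sum is highest in the nanocluster group, at 8.07 to 18.8 FPKM against 2.90 to 7.83 in Control, whereas relative to Ptprc the nanocluster and Control libraries overlap.

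Other genes of the B cell programme were read from lists, with counts taken over the genes that reached 0.5 FPKM. Of all genes that reached it, 20.9% were higher and 12.7% lower in the nanocluster group against Control. Between the treated groups 17.3% were higher with the nanocluster, and 9.87% were lower with Lenvatinib+anti-PD1 than in Control. Against Control, limma called 33.6% of all genes with all libraries, 37.6% without Control library 2 and 18.6% without nanocluster library 3. Of 11 other B cell surface and signalling markers tested against Control, 4 rose and 1 fell in the nanocluster group, with a median log2 fold change of 0.81. H2-Ob, a chain of the class II peptide-loading regulator H2-O, rose by 0.81 and Btla, an inhibitory receptor shared with T cells, by 0.78 (limma adjusted p = 0.0193 and 0.00765). Cd72, an inhibitory co-receptor, rose by 2.04 (limma adjusted p = 0.0106), but was higher in library 1 than in library 2, at 13.1 and 8.97 FPKM. Without Control library 2 the count that rose was 7 instead of 4.

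Of 13 transcription factors of the lineage tested, 5 rose and 1 fell against Control, where 20.9% of all genes rose and 12.7% fell. Spib, an Ets-family factor of B cells and plasmacytoid dendritic cells, rose by 0.94 (limma adjusted p = 0.0158), and Ikzf3, or Aiolos, which T cells share, by 1.23 (limma adjusted p = 0.0301). Ebf1, an early B lineage factor that fibroblasts and fat cells also use, was at 0.716, 0.251 and 0.469 FPKM in the nanocluster libraries, an order opposite to that of Pax5. The count that rose was 8 without Control library 2, 3 without Control library 3, Lenvatinib+anti-PD1 library 3 or nanocluster library 1, and 2 without nanocluster library 3.

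The signalling chain below the receptor, from Syk and Btk to Plcg2, is shared with myeloid cells and was ordered differently over the libraries. All 20 genes were tested, and 7 rose against Control with 0 lower, where 20.9% of all genes rose. Their median log2 fold change was 0.56. Between the treated groups 12 of 20 were higher with the nanocluster, where 17.3% of all genes were. Among the 12, the inhibitory Fc receptor gene Fcgr2b was higher by 1.61 (limma adjusted p = 0.00285) and the kinase Syk by 1.41 (limma adjusted p = 0.0128). Only 5 of 20 were higher in nanocluster library 2 than in library 1, against 9 of 9 B cell identity genes. In Control, 20 of 20 were higher in library 2 than in library 1, where 59.3% of all genes tested were. The 7 against Control became 14 without Control library 2, 4 without nanocluster library 1, 3 without Control library 3 and 2 without nanocluster library 3. The 12 became 19 without Control library 1, 7 without Lenvatinib+anti-PD1 library 1, and 5 without nanocluster library 3 or Lenvatinib+anti-PD1 library 3.

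Of 11 immunoglobulin constant regions tested, 5 rose against Control with 0 lower, where 20.9% of all genes rose and 12.7% fell. Igkc, the kappa light chain constant region, was at 182, 235 and 215 FPKM against 55.0 to 64.9 in Control. It rose by 1.80 (limma adjusted p = 0.000382), and the heavy chain constant region Ighm rose by 2.65 (limma adjusted p = 0.000734). With Lenvatinib+anti-PD1, 5 of 11 fell against Control with 0 higher, where 9.87% of all genes fell. Ighg2c, whose reads can be split with the similar Ighg2b, fell by 2.44 (limma adjusted p = 0.00183) and Igkc by 1.13 (limma adjusted p = 0.00337). Between the treated groups 8 of 11 were higher with the nanocluster, where 17.3% of all genes were. With libraries 1 and 2 alone these counts of 5, 5 and 8 were 0, 1 and 4 by limma, and 5, 4 and 7 at an unadjusted p under 0.05. Those fits called 0.521%, 0.345% and 2.38% of all genes. Of 11 plasma cell genes tested, 3 rose and 2 fell against Control, where 20.9% of all genes rose and 12.7% fell. Mzb1, a chaperone of antibody assembly, rose by 2.02 (limma adjusted p = 0.000402) and Jchain, which links IgA and IgM multimers, by 1.62 (limma adjusted p = 0.00208). Sdc1, the plasma cell marker CD138 that liver epithelium also expresses, fell by 0.58 (limma adjusted p = 0.000430).

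Genes for B cell homing, survival and follicles were mixed. Of 13 tested factors, 6 rose and 1 fell against Control, where 20.9% of all genes rose and 12.7% fell. Ltb, which encodes lymphotoxin beta, rose with the nanocluster by 1.62 (limma adjusted p = 0.00186) and with Lenvatinib+anti-PD1 by 1.34 (limma adjusted p = 0.00506). Cxcl13, the chemokine that draws B cells into follicles, was at 0.828, 2.18 and 1.83 FPKM in the nanocluster group, 0.131 to 0.492 with Lenvatinib+anti-PD1 and 0.435 to 0.906 in Control. It did not pass against Control (log2 fold change 0.79, limma adjusted p = 0.0758) and was higher than with Lenvatinib+anti-PD1 by 1.31 (limma adjusted p = 0.0154). Its receptor gene Cxcr5 followed the order of the identity genes at 0.315, 0.896 and 0.551 FPKM. The survival factor BAFF, encoded by Tnfsf13b, was at 1.12, 0.519 and 0.918 FPKM in the nanocluster group and had a log2 fold change of 0.29 (limma adjusted p = 0.403). Ccl21a rose by 2.90 in the nanocluster group (limma adjusted p = 0.0203), and its values of 13, 2.59 and 6.82 FPKM followed the order of the adipocyte markers. It was at 2.97, 23.9 and 10.6 FPKM in Lenvatinib+anti-PD1 libraries 1, 2 and 3, also above the 0.183 to 0.691 FPKM of Control. Of 8 follicular dendritic cell markers 0 rose and 4 fell, where 12.7% of all genes were lower. Genes of that list were at high levels, Enpp2 at 29.1 to 54.8 FPKM in the nanocluster group and 104 to 111 in Control. Ltbr was at 46.0 to 48.1 and 60.3 to 72.2 FPKM. Hepatocyte markers fell in the same comparison, and which cells gave the levels of this list was not tested. Of 7 germinal centre genes 3 rose, Il21r, Fas and Bcl6, none of which is limited to B cells. The 6 homing and survival genes became 1 without nanocluster library 3, and the 3 germinal centre genes became 5 without Control library 2. With libraries 1 and 2 alone, limma called 0 genes of the lists of surface markers, transcription factors, receptor signalling, plasma cells, homing and germinal centres against Control, while 3, 4, 3, 3, 4 and 3 were higher at an unadjusted p under 0.05.

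Of the T cell markers in the same tumours, 15 of 17 rose against Control with 0 lower, where 20.9% of all genes rose. Their median log2 fold change was 1.58, and Cd8a rose by 2.22 (limma adjusted p = 0.00496). Without nanocluster library 3 the count that rose was 9, where 18.6% of all genes were called. With libraries 1 and 2 alone, where 0.521% of all genes were called, it was 0, with 12 at an unadjusted p under 0.05. Whether B and T cell genes differed in their change was not tested.

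The genes whose levels ran closest to the 4 filtered members over the 9 libraries were ranked by Pearson correlation among 13384 genes averaging 1 FPKM or more. The first were Lamtor1, a lysosomal scaffold subunit (r = 0.988), Nos2, the inducible nitric oxide synthase of activated macrophages (r = 0.987), Srrm2, a splicing protein (r = 0.986), and the lambda light chain segment Iglv2 (r = 0.982). Nos2 was at 11.2, 24.1 and 17.2 FPKM in the nanocluster libraries and at 4.18, 12.7 and 9.94 FPKM in Control. For reference Igkc had r = 0.899, Adgre1, the macrophage gene for F4/80, r = 0.768 and Cd8a r = 0.737. The libraries share groups, so the correlations describe these 9 libraries and carry no test.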

How the data were processed

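RNA-seq of 9 tumour libraries, 3 in each of 3 groups, was read from 1 deposited table whose FPKM columns were made by the authors. The table is named for raw counts, but its values are FPKM, per the file headers. fastp, StringTie and edgeR are named without versions or settings, per the submitters' processing notes. The sources used here do not give the aligner, genome build, annotation or use of strand. Poly(A) selection and a strand-marking kit were used, per the labels' protocols.

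FPKM were taken to log2(FPKM + 0.5) and tested with limma 3.58.1 in R 4.3.3, with trend and robust variance, over all 9 libraries, for genes averaging 0.5 FPKM or more. P-values were adjusted by Benjamini-Hochberg over all genes tested, with a threshold of 0.05. Low members were tested in a second fit over all genes above 0 in 1 library. The fit was tested on simulated data. Depth, estimated from the value that 1 fragment would give in single-transcript genes, came to 14700000 to 21800000 fragments a library and is not exact. Alternatives changed the pseudocount, filter, scaling, variance model, samples and replicate block. With 3 libraries a group, exact tests of single values cannot go below p = 0.1 and were not run. Tables were handled with pandas 2.3.3 and numpy 2.4.6 in Python 3.11.15.

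The 9 members and 18 gene lists, with 224 of 224 symbols found, were chosen with earlier results of these data known. From each list the text may name up to 4 genes with the largest change among those past the threshold and up to 2 of the highest mean among those past it in no comparison, plus 19 fixed genes and the 10 genes most like the members.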

Additional observations from a re-analysis of the deposited data

How the results depend on the processing

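No log2 fold change of a member changed direction under any alternative run. Across the 9 genes and all alternatives, 33 of 168 results against Control changed their side of the threshold, 33 of 168 between the treated groups and 2 of 168 for Lenvatinib+anti-PD1 against Control. The cause was not tested. Against Control 1 of 4 genes passed for the nanocluster group. That count was 0 with a pseudocount of 0.1, with only the 2 groups compared, and with libraries 1 and 2 alone, filtered or not. With genes of at least 1 FPKM it was also 0, but Pou2af1, at a mean of 0.704 FPKM, was not tested there. The count was 2 of 9 with no filter, and 2 of 9 with a pseudocount of 0.1 and no filter. Leaving out each library in turn gave 0 to 3. Between the treated groups 4 of 4 passed, leaving out 1 library gave 1 to 4, libraries 1 and 2 alone gave 0 with or without the filter, and the other alternatives gave 3 to 6. Of all genes, libraries 1 and 2 alone called 2.38% with the filter and 0.0855% without it in that comparison. For Lenvatinib+anti-PD1 against Control 0 passed, and leaving out 1 library gave 0 to 2. The alternatives without a filter that change the pseudocount or drop library 3 were added after seeing the data.

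The replicate numbers did not pair the libraries: correlations of same-numbered deviations from the group means ran from -0.248 to 0.0785, and not every library correlated best with its own number. With a replicate block 2 of 4 genes passed against Control, as Cd79b joined Pou2af1 (limma adjusted p = 0.0443), and Pax5 and Fcrla missed the threshold at 0.0866 and 0.0560. The block left 0 for Lenvatinib+anti-PD1 against Control and 4 between the treated groups. Another scaling, by median of ratios, moved the all-gene median log2 fold change in the nanocluster group against Control from 0.13 to 0.021, and the calls from 3209 higher and 1946 lower to 2216 and 2699. Under it Pou2af1 kept its call and Pax5 lost it (log2 fold change 0.57, limma adjusted p = 0.0538). Low levels limit Cr2, Ms4a1, Blk and Pax5, whose Lenvatinib+anti-PD1 values rest on few fragments.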
